A study of Mus musculus with 3 samples.

Results

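The transcripts of 9 transcription factors of the lung epithelium were followed through whole-lung scRNA-Seq: *Nkx2-1*, *Foxa1*, *Foxa2*, *Cebpa*, *Etv5*, *Gata6*, *Hopx*, *Sox2*, and *Elf3*. They were chosen by gene symbol, and all 9 were found among the 28692 genes counted. The lungs came from 3 wild-type C57BL/6 pups kept in room air from the first day of life to P14, so there was 1 condition, and the mice, numbered 2, 3, and 4, were the replicates. Alveolar type 1 (AT1), alveolar type 2 (AT2), airway, and non-epithelial cells were compared with each other within these mice.

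NKX2-1 marks the lung lineage of the foregut and acts with the forkhead factors FOXA1 and FOXA2 throughout the lung epithelium. C/EBPα and the ETS factor ETV5, which is a target of FGF signaling, are known for the AT2 cell, the surfactant-producing cell that also renews the alveolar surface. HOPX, a homeodomain protein that does not bind DNA itself, is known for the flat AT1 cell across which gas is exchanged. GATA6 is a zinc-finger factor of foregut, heart, and vessels. SOX2 marks the conducting airways, and ELF3 is an ETS factor of epithelia. Transcript counts show the RNA of a factor and not its protein or its activity.

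The 3 libraries held 9644 cells with 22476491 to 25192427 unique molecular identifiers (UMIs, each a captured transcript molecule), of which 7642 cells passed the filters. Cells with markers of AT1 cells numbered 43, 26, and 59 in mice 2, 3, and 4, AT2 cells 385, 258, and 404, airway cells 14, 13, and 21, and non-epithelial cells 1605, 2082, and 1841. Depth differed between these groups, from a median of 5550 UMIs in AT1 cells and 5516 in non-epithelial cells to 16194 in AT2 and 38565 in airway cells. In mouse 3 the AT1 cells were shallow, with a median of 1877 UMIs. The cell groups were named from marker genes, so the marker levels describe the groups and are no independent check of the names. The 7 AT1 markers summed to 23156 CPM (counts-per-million of all UMIs in the group) in AT1 cells against 1699 in AT2 cells, the 7 AT2 markers to 210655 in AT2 cells against 1481 in AT1 cells, and the 6 club markers to 279617 in airway cells. The libraries shared 5, 2, and 5 cell barcodes in pairs and 0 among all 3. Another 39 cells carried AT1 and AT2 markers together and were set aside from the AT1 group, a choice made after their values had been seen, and they are described on their own.

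B cells, taken as cells that should lack most of these factors, gave a comparison level for these genes. They held 7750160 UMIs in 1785 cells, and 90.5% of them had no UMI of any of the 9 genes. The B-cell level was 3.46 CPM for *Nkx2-1*, 7.30 for *Etv5*, 10.4 for *Hopx*, 1.28 for *Cebpa*, and under 1 for the other 5. Some other cell groups lay lower, with *Etv5* at 0.670 CPM in venous endothelial cells and 2.10 in smooth muscle. *Hopx* was at 2.70 CPM in myofibroblasts. An AT2 cell had UMIs of 5.70 ± 0.127 of the 9 genes (mean ± SD, n = 3 mice), an AT1 cell of 3.38 ± 0.281, an airway cell of 6.88 ± 0.809, and a B cell of 0.101 ± 0.0217. These numbers follow depth as well as expression.

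**Figure D1:**
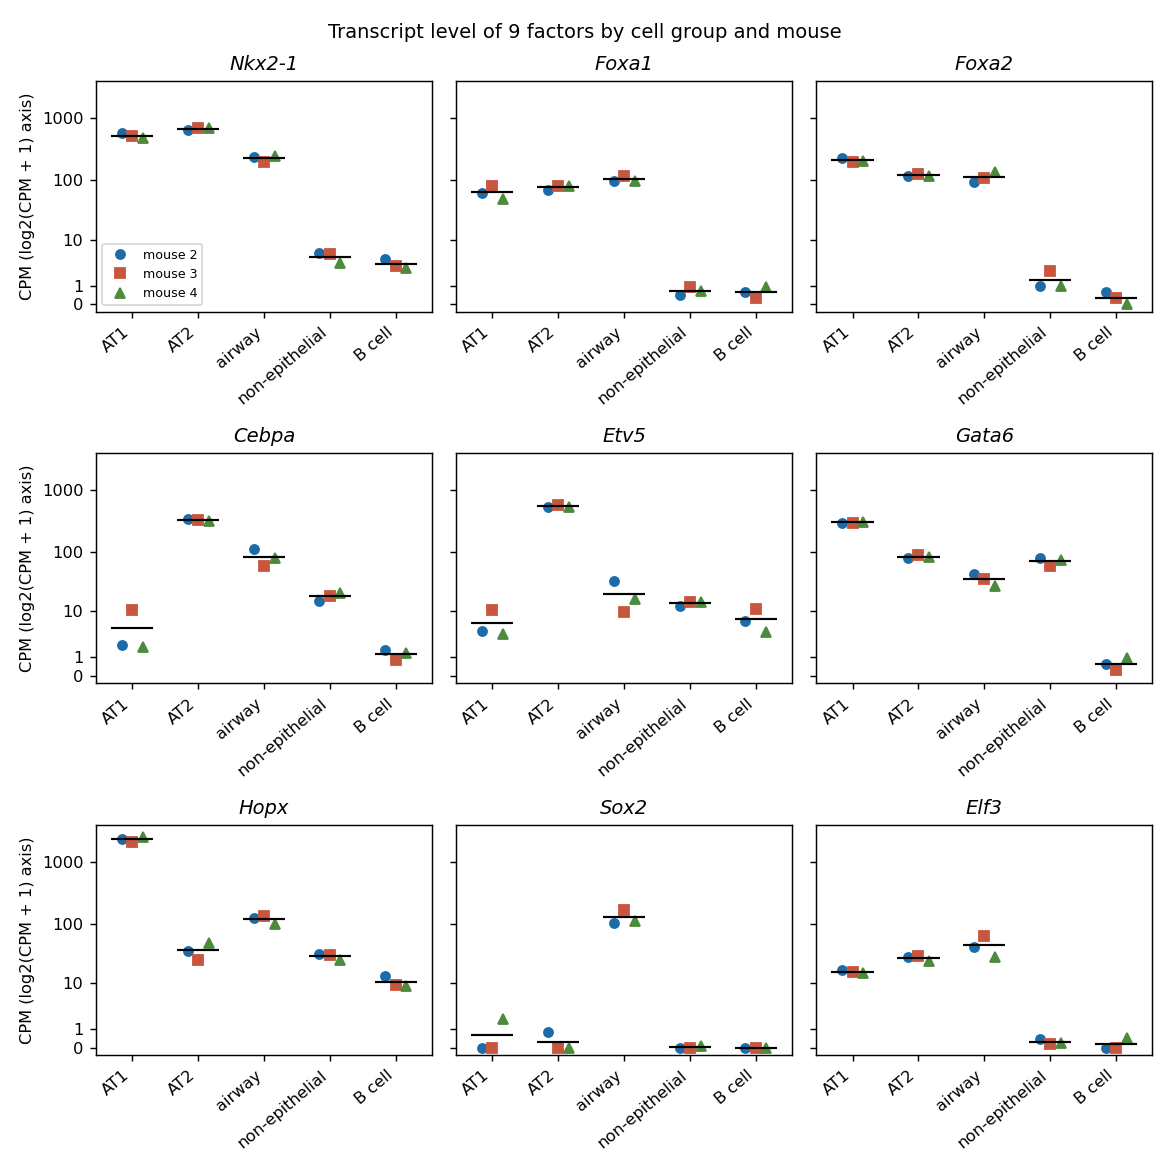
Each panel plots the level of 1 factor in CPM (log2(CPM + 1) axis) in AT1, AT2, airway, and non-epithelial cells and in B cells, with a point for each of the 3 mice and a line at the mean. *Cebpa* and *Etv5* sit high in AT2 cells and near the B-cell level in AT1 cells, *Hopx* and *Gata6* are highest of the epithelial groups in AT1 cells, and *Sox2* is high in airway cells alone among these groups.

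The sequences just before the transcription starts of 7 of these genes are shown because these genes differ most between the epithelial groups or because their window holds a binding motif of another member. They are the 250 bases upstream of the start that RefSeq gives on GRCm38.p6, read in the direction of the gene. The windows lie at chr7:35119043-35119292 (plus strand) for *Cebpa*, chr16:22439571-22439820 (minus) for *Etv5*, chr5:77095268-77095517 (minus) for *Hopx*, chr3:34649745-34649994 (plus) for *Sox2*, chr1:135258473-135258722 (minus) for *Elf3*, chr12:57546112-57546361 (minus) for *Foxa1*, and chr2:148045465-148045714 (minus) for *Foxa2*. Capitals mark a match to 1 of 6 short motifs on either strand.
Cebpa: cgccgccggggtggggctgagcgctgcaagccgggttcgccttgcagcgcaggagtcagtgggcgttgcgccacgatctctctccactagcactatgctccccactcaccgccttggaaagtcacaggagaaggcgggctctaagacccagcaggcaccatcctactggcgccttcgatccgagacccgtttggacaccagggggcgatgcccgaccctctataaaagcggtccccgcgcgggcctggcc
Etv5: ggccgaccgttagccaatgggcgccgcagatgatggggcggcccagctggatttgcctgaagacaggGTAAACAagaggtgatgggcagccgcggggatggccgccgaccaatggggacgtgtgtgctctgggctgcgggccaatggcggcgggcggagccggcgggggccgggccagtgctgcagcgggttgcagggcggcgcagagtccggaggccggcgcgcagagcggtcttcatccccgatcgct
Hopx: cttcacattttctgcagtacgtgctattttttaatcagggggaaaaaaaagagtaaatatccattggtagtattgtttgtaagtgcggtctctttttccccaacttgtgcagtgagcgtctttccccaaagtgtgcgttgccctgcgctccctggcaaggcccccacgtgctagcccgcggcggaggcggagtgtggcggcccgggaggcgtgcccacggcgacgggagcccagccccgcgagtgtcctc
Sox2: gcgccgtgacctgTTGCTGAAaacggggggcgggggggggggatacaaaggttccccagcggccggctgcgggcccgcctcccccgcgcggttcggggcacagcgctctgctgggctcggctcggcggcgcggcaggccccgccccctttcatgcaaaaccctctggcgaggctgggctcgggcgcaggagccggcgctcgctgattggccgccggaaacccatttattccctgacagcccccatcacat
Elf3: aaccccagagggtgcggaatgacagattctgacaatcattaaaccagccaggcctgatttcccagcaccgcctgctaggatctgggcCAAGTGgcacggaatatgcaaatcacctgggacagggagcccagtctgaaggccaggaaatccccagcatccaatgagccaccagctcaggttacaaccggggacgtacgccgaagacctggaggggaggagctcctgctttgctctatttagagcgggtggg
Foxa1: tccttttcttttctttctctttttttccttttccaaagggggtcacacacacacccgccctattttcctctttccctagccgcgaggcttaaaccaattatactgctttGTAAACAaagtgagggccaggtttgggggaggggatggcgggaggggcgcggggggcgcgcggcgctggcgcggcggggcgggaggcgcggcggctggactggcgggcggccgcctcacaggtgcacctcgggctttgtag
Foxa2: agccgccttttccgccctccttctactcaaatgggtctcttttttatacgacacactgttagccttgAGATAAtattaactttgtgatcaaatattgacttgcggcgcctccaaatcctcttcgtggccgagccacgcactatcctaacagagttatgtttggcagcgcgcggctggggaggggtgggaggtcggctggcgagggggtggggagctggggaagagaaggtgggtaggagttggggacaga
The motif searched for NKX2 factors was CAAGTG. That of FOXA factors was TGTTTAC, and that of C/EBP factors was TTGCNNAA, with N any base. For ETS factors the letters CCGGAAG were used. For GATA factors they were AGATAA, and for SOX factors ACAATG. *Etv5* and *Foxa1* each hold a FOXA match, at 183 to 177 and 141 to 135 bases before the start, and 3.17% of all 32851 windows of this length hold one. The *Sox2* window holds a C/EBP match (9.56% of all windows) the *Elf3* window an NKX2 match (11.6%), and the *Foxa2* window, the last of its 3, a GATA match at 183 to 178 bases before the start (9.99%). No match was found in the *Cebpa* and *Hopx* windows shown, which says only that these letters are not there. Of 12 windows of 8 members, 5 hold any of the 6 motifs, against 41.8% of all windows. *Hopx* has 2 windows in the table and *Etv5* has 2. The *Sox2* start used here lies upstream of the GENCODE M21 start, and those of *Foxa1*, *Etv5*, *Elf3*, and the *Hopx* and *Foxa2* windows shown lie inside the GENCODE genes.

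*Nkx2-1* (chr12:56531958-56536908), the factor of the lung lineage, was present in all 3 epithelial groups. AT2 cells had 659, 703, and 687 CPM in mice 2, 3, and 4 (683 ± 22.4), AT1 cells 581, 520, and 479 (527 ± 51.2), and airway cells 235, 198, and 248 (227 ± 26.1). The 3 groups did not overlap in any mouse, and AT2 cells were highest. Non-epithelial cells were at 4.85 CPM, beside 3.46 in B cells. At least 1 UMI was found in 99.5% of AT2 cells, 71.1% of AT1 cells, and 95.8% of airway cells, against 1.46% of B cells. Cells of at least 1000 UMIs were then thinned to 1000 UMIs, and shallower cells were left out. The shares were 49.4%, 38.6%, and 21.4%, with 0.380% in B cells, so the low unthinned share of AT1 cells went with their lower depth.

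*Foxa1* (chr12:57540628-57546916) and *Foxa2* (chr2:148042877-148046969), forkhead factors with overlapping roles, were found in the same 3 groups, with their means in opposite order. *Foxa1* was at 97.3, 118, and 96.7 CPM in airway cells, 69.8, 80.5, and 81.3 in AT2 cells, and 61.3, 78.7, and 49.4 in AT1 cells. Airway cells lay above both alveolar groups in every mouse, whereas AT2 and AT1 cells overlapped. *Foxa2* was highest in AT1 cells, at 226, 194, and 207 CPM, against 117, 124, and 118 in AT2 cells and 92.3, 106, and 136 in airway cells. Here the AT1 cells lay above both other groups in every mouse, and AT2 and airway cells overlapped. B cells had 0.580 CPM of *Foxa1* and 0.273 of *Foxa2*.

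*Elf3* (chr1:135253575-135258568), an epithelial ETS factor, was present at low levels in all 3 epithelial groups. It stood at 40.6, 62.8, and 28.6 CPM in airway cells, 27.7, 29.2, and 24.2 in AT2 cells, and 16.9, 15.7, and 15.2 in AT1 cells, where the AT1 values rest on 8, 3, and 8 UMIs. AT2 cells lay above AT1 cells in every mouse, while the airway range overlapped that of AT2 cells. A UMI was found in 33.5% of AT2 cells and 0.0560% of B cells.

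*Cebpa* (chr7:35119293-35121928), a leucine-zipper factor of AT2 cells and of myeloid and adipose cells, divided the alveolar cells. AT2 cells had 345, 334, and 320 CPM (333 ± 12.5) and airway cells 111, 58.0, and 80.2. AT1 cells had 1, 2, and 1 UMIs in the 3 mice, or 2.11, 10.5, and 1.90 CPM. All AT2 values lay far above all AT1 values. Over pooled counts, the AT2 level was 99.1 times that of AT1 cells (95% interval 38.7 to 364, from 5724 and 4 UMIs, covering counting error only). The AT1 group leaves out the 39 cells of both marker sets, and with them the fitted log2 difference between AT2 and AT1 cells was 1.94.

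*Etv5* (chr16:22381309-22439719), the ETS factor downstream of FGF, showed the same division. Its level was 535, 584, and 525 CPM in AT2 cells (548 ± 31.2), 33.5, 9.66, and 16.5 in airway cells, and 4.22, 10.5, and 3.80 in AT1 cells, from 2 UMIs in each mouse. Pooled, AT2 cells had 108 times the AT1 level (49.5 to 294). With the 39 cells of both marker sets in the AT1 group, the fitted log2 difference was 2.12. The AT1 level was no higher than that of B cells, with a ratio of 0.620 (0.219 to 1.43). For *Cebpa* the AT1 level was 2.90 times that of B cells, with an interval of 0.652 to 10.4. Both intervals include 1, so neither gene was detectable above the B-cell level in AT1 cells at this depth. The B-cell level of *Etv5*, 7.30 CPM, was not the lowest of the cell groups, with 0.670 in venous endothelial cells, so it is not a floor. Whether B cells transcribe *Etv5* themselves was not tested.

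RNA of the 7 AT2 markers was also found in the other groups. It stood at 0.689% of their AT2 level in AT1 cells, 3.68% in airway cells, and 0.647% in non-epithelial cells. The same share of the AT2 level would be 2.32 CPM of *Cebpa* and 3.74 of *Etv5* in AT1 cells, where 4.84 and 6.17 were measured. In airway cells it would be 12.4 CPM of *Cebpa* and 19.8 of *Etv5*, where 82.9 and 19.9 were measured. The 3 mice had the same order in both measures, with the markers in airway cells at 7.03%, 1.41%, and 2.59% of their AT2 level in mice 2, 3, and 4, and *Etv5* at 33.5, 9.66, and 16.5 CPM. *Cebpa* in airway cells lay above this share in 3 of 3 mice and *Etv5* in 2 of 3. How much of the airway *Etv5* came from AT2 RNA was not tested.

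*Gata6*, a zinc-finger factor, was highest of the epithelial groups in AT1 cells. Its level there was 298, 299, and 302 CPM (300 ± 2.34), against 80.0, 88.0, and 83.1 in AT2 cells and 43.6, 35.4, and 27.5 in airway cells. The AT1 values rest on 357 UMIs in all, and so small an SD understates their counting error. The order AT1, AT2, airway held in every mouse without overlap. B cells had 0.580 CPM. *Gata6* overlaps a gene on the other strand, 1010001N08Rik, and the 3′ kit keeps strand.

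*Hopx* (chr5:77086988-77115121) set AT1 cells apart from all other groups. AT1 cells had 2374, 2131, and 2510 CPM (2338 ± 192), AT2 cells 35.7, 25.4, and 48.8 (36.6 ± 11.7), and airway cells 122, 132, and 97.8. The 3 groups did not overlap, and AT2 cells were lowest. A UMI was found in 95.3% of AT1 cells. Among cells of at least 1000 UMIs thinned to 1000, it was found in 85.0% of AT1, 2.91% of AT2, and 1.11% of B cells.

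The few *Hopx* UMIs of AT2 cells were spread unevenly. Of 1037 AT2 cells with at least 2000 UMIs, 26.4% had a *Hopx* UMI, where the same 654 UMIs at an even rate per UMI of depth would reach 45.5%. The tenth of cells with most *Hopx* held 74.0% of its UMIs. By contrast *Gata6* was found in 70.3% against 72.2% at an even rate, and *Foxa1* in 67.5% against 69.5%. Only 22 AT2 cells had 5 or more *Hopx* UMIs, 10 in mouse 2, 2 in mouse 3, and 10 in mouse 4, and these held 43.9% of the gene's AT2 UMIs. Their median share of UMIs from the 7 AT1 markers was 0.274%, beside 0.151% in the 763 cells with no *Hopx*, and their median share from AT2 markers was 18.1% beside 21.4%. The part of shared droplets in this was not tested. With marked doublets removed, the AT2 level of *Hopx* was 30.4 CPM.

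**Figure D2:**
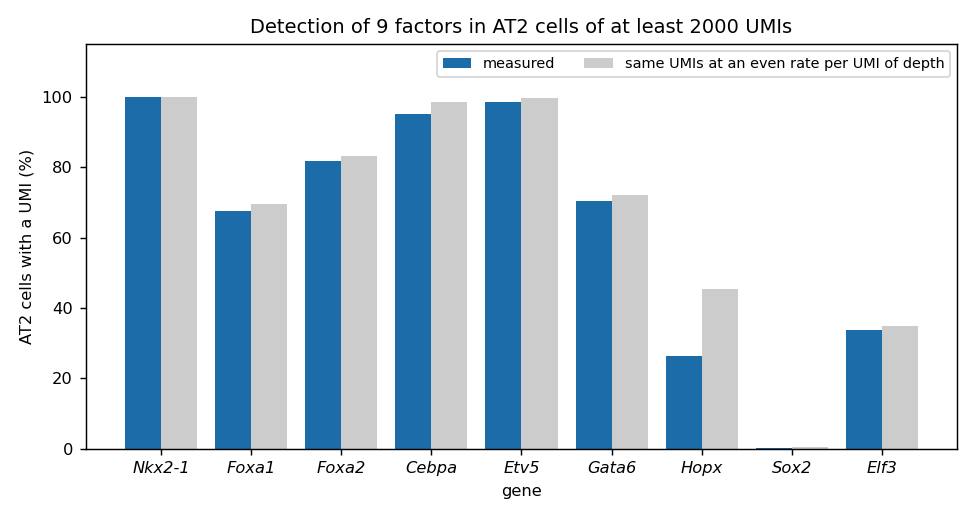
The bars give the percent of 1037 AT2 cells of at least 2000 UMIs in which each factor had a UMI (blue) and the percent that the same number of UMIs would reach if spread evenly per UMI of depth (gray). For *Foxa1* the bars stand at 67.5% and 69.5% and for *Etv5* at 98.5% and 99.6%, whereas *Hopx* was found in 26.4% of cells against 45.5%.

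*Sox2* (chr3:34650405-34652461), the SOX factor of the conducting airway, was at 102, 167, and 112 CPM in airway cells (127 ± 35.1), with a UMI in 91.7% of them. In AT1 cells it had 1 UMI in all, in mouse 4, and in AT2 cells 5 UMIs, all in mouse 2 and in 2 of 1047 cells, of which 1 cell held 4. Non-epithelial cells had 1 UMI among 41177011. B cells had 0, which allows up to 3 counts, so the airway level was at least 315-fold higher. *Sox2* lies within the long noncoding gene Sox2ot on the same strand, so its count is uncertain to the extent that reads were shared.

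The 48 airway cells were not uniform. By their markers, 15 were ciliated-like, 19 club-like, and 14 carried markers of both, with a median of 12669, 42259, and 74684 UMIs. The 14 cells with both held 1242572 of the 2517422 airway UMIs and stayed in the airway sums. Of them, 1 was among the marked doublets, and whether they were pairs of cells was not tested. No class had 10 cells in any mouse, so pooled levels with 95% Poisson intervals are given with no test. *Cebpa* was at 112 CPM (92.2 to 135) in club-like cells and 31.7 (14.5 to 60.2) in ciliated-like cells. *Hopx*, *Foxa2*, and *Sox2* went the other way, at 218, 211, and 222 CPM in ciliated-like cells and 54.5, 60.6, and 121 in club-like cells. *Nkx2-1* was at 253 CPM (198 to 319) in ciliated-like and 155 (132 to 182) in club-like cells. The intervals of these 5 genes did not overlap between the classes, those of *Foxa1* met at 137 CPM, and those of *Etv5*, *Gata6*, and *Elf3* overlapped. These levels are shares of all UMIs. The 6 club markers alone took 355232 CPM in club-like and 3343 in ciliated-like cells, which lowers the CPM of other genes in club-like cells. The intervals do not cover this, and its part in the differences was not tested.

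Which factors separated AT2 from AT1 cells was tested with UMI sums per mouse and cell group. With edgeR's quasi-likelihood test, 5 of the 9 factors were higher in AT2 cells (19.5% of the 13066 genes tested were called in this direction) and 2 were lower (15.6%). *Etv5* was higher by 7.15 ± 0.38 (log2 fold change ± SE, adjusted p = 4.96e-10) and *Cebpa* by 7.01 ± 0.43 (adjusted p = 2.43e-09). These fitted values rest on the few AT1 UMIs given above and are larger than the pooled ratios. They also rest on the AT1 group without the 39 cells of both marker sets, and with these counted as AT1 cells they were 2.12 for *Etv5* and 1.94 for *Cebpa*, both still called. *Elf3* was higher by 1.16 ± 0.31 (adjusted p = 0.00843), *Nkx2-1* by 0.79 ± 0.18 (0.00214), and *Foxa1*, whose ranges overlapped, by 0.77 ± 0.17 (0.00209). With the 39 cells counted as AT1 cells, *Elf3* was at 0.46 and lost its call (adjusted p = 0.161). *Hopx* was lower, at -5.57 ± 0.23 (5.53e-11), as was *Gata6*, at -1.44 ± 0.14 (5.80e-07). The difference of *Foxa2*, -0.42 ± 0.19, did not pass the test (adjusted p = 0.106), nor did that of *Sox2*.

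The scale of these differences needs a caution. Surfactant and secretory transcripts take a large share of the UMIs of AT2 and airway cells, and trimmed mean (TMM) scaling corrects for it, so that the fitted differences are relative to most genes and not to all UMIs. Without TMM, all AT2 against AT1 values moved by a median of -0.40 (log2). *Nkx2-1*, *Foxa1*, and *Elf3* then stood at 0.37, 0.37, and 0.76 and missed the threshold (adjusted p = 0.0676, 0.172, and 0.119), and *Foxa2* was lower in AT2 cells, at -0.82 (0.00261). The corresponding shift was 0.14 for AT2 against airway, 0.53 for AT1 against airway, and -0.10, -0.49, and -0.63 for AT1, AT2, and airway against non-epithelial cells. The calls of *Cebpa*, *Etv5*, *Hopx*, and *Gata6* between AT2 and AT1 cells did not change. *Foxa1* between AT2 and AT1 cells also lost its call without mouse 4 (0.60, adjusted p = 0.121), *Elf3* without mouse 2 (1.16, 0.0844), and *Foxa2* passed without mouse 3 (-0.46, 0.0187).

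AT2 and airway cells differed in 8 of 9 factors. *Etv5* was higher in AT2 cells by 4.54 ± 0.26 (adjusted p = 1.46e-09), *Cebpa* by 1.82 ± 0.21 (3.16e-06), *Nkx2-1* by 1.44 ± 0.18 (6.69e-06), and *Gata6* by 1.08 ± 0.17 (1.04e-04), 4 factors in a direction in which 18.6% of all genes were called. Also 4 were lower, against 20.7% of genes: *Sox2* at -8.77 ± 0.41 (1.90e-10), *Hopx* at -1.79 ± 0.22 (6.29e-06), *Elf3* at -0.78 ± 0.20 (0.00603), and *Foxa1* at -0.55 ± 0.13 (0.00319). *Foxa2* was at -0.04 ± 0.19 (0.884). When each cell was assigned by its own markers, which put 242 cells in the airway group, *Foxa1* was at 0.12 (adjusted p = 0.624) and *Elf3* at -0.13 (0.594), so the calls of these 2 rest on which cells count as airway. Under the same assignment *Foxa2* was called higher in AT2 cells (0.63, adjusted p = 0.0432). With the stricter cell filter (500 genes, 10% mitochondrial UMIs), *Gata6* was at 0.42 (0.264) and *Foxa1* and *Elf3* were not called either. That filter left the AT1 cells of mouse 3 under 10 and so out of the fit. It also bore on the airway cells, whose median share of mitochondrial UMIs was 11.9%. Cells were clustered and named anew under it, so its airway group was not the same 48 cells. Without mouse 2, *Foxa1* (adjusted p = 0.0508) and *Elf3* (0.0554) missed the threshold, and *Elf3* did so without mouse 3 (0.0589).

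AT1 and airway cells were told apart by 3 higher factors (15.6% of genes) and 5 lower ones (21.6%). *Hopx* was higher in AT1 cells by 3.79 ± 0.22 (adjusted p = 2.63e-09), *Gata6* by 2.52 ± 0.18 (2.62e-08), and *Nkx2-1* by 0.65 ± 0.18 (0.0102). *Sox2* at -7.70 ± 0.65 (1.49e-07), *Cebpa* at -5.19 ± 0.53 (1.15e-06), *Etv5* at -2.61 ± 0.60 (0.00251), *Elf3* at -1.94 ± 0.32 (1.80e-04), and *Foxa1* at -1.33 ± 0.18 (2.75e-05) were lower. With the 39 cells of both marker sets counted as AT1 cells, *Cebpa* was at -0.19 (0.570) and *Etv5* turned to 2.35. *Foxa2* was at 0.38 ± 0.21 (0.190), although its ranges did not overlap, and it was called without TMM (0.92, 0.00207) and with cells typed by their own markers (0.93, 0.0145). Without mouse 2, *Nkx2-1* (adjusted p = 0.0739) and *Etv5* (-1.76, 0.0610) were not called, nor was *Nkx2-1* with the stricter cell filter (0.0604).

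**Figure D3:**
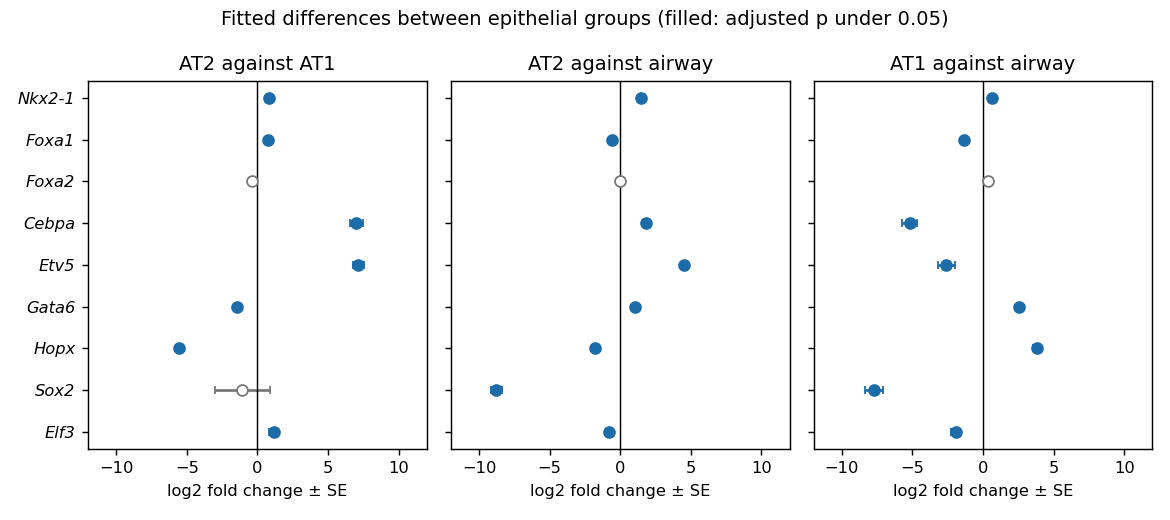
Each point is the fitted log2 fold change of 1 factor, with its SE as the bar, for AT2 against AT1, AT2 against airway, and AT1 against airway cells (n = 3 mice), filled where the adjusted p passes 0.05. *Cebpa* and *Etv5* lie at 7.01 and 7.15 and *Hopx* at -5.57 in AT2 against AT1 cells, and *Sox2* at -8.77 and -7.70 in the alveolar groups against airway cells.

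Against all non-epithelial cells together, 6 factors were higher in AT1 cells (19.5% of genes), 9 in AT2 cells (27.2%), and 8 in airway cells (26.0%). A factor was lower only for *Cebpa* in AT1 cells (31.2% of genes were lower there, with 37.8% in AT2 and 32.4% in airway cells). *Nkx2-1* was higher by 6.83, 7.62, and 6.18 in AT1, AT2, and airway cells, *Foxa1* by 6.54, 7.31, and 7.86, *Foxa2* by 7.24, 6.83, and 6.87, and *Elf3* by 5.98, 7.14, and 7.92. The adjusted p of these 4 was at most 1.86e-07 in all 3 comparisons. *Sox2* was higher in airway cells by 11.87 ± 0.45 (adjusted p = 4.14e-12). Its call in AT2 cells (3.10 ± 1.18, 0.0300) rests on 5 UMIs in mouse 2 and turned to -1.22 without that mouse.

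For the other 4 factors the non-epithelial side was not empty. *Gata6* was higher by 2.17 ± 0.14 in AT1 cells (adjusted p = 2.84e-09) and by 0.73 ± 0.12 in AT2 cells (5.33e-05), and the airway difference of -0.35 ± 0.18 did not pass (0.102). Without TMM the AT2 value was 0.24 (0.0879) and the airway value -0.99 (8.77e-05). With endothelial, stromal, and immune cells given equal weight, the airway value turned to 1.07 (adjusted p = 5.24e-04), so it depends on the mix of cells captured. *Hopx* was higher by 6.40 ± 0.24 in AT1 cells, 2.61 ± 0.22 in airway cells, and 0.83 ± 0.20 in AT2 cells (0.00189), where the AT2 range of 25.4 to 48.8 CPM overlapped the non-epithelial range of 25.2 to 32.2. That AT2 call was lost without mouse 4 (0.47, 0.122) and without TMM (0.33, 0.133). *Cebpa* was higher by 4.68 ± 0.21 in AT2 and 2.86 ± 0.23 in airway cells and lower in AT1 cells, at -2.33 ± 0.68 (0.00946), a call lost without mouse 4 (-1.84, adjusted p = 0.135). This AT1 call was also lost with equal weight of endothelial, stromal, and immune cells (-1.65, 0.129). It was lost too with each cell typed by its own markers (-1.91, 0.0912). *Etv5* was higher by 5.79 ± 0.22 in AT2 cells and 1.24 ± 0.31 in airway cells (0.00249; 0.46 and 0.282 without mouse 2), and its AT1 difference of -1.36 ± 0.60 did not pass (0.0718).

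The levels outside the epithelium came from particular cell types. *Gata6* was highest of 20 cell groups in arterial endothelial cells (EC), at 558 ± 52.7 CPM, followed by AT1 cells, smooth muscle (223 ± 16.1), venous EC (178 ± 6.37), a stromal cluster led by *Dcn*, *Col2a1*, and *Col10a1* (124 ± 20.4), AT2 cells, and *Aplnr*-type capillary EC (71.2 ± 5.42). Each of these lay above the next in every mouse. *Car4*-type capillary EC had 2.97 CPM of *Gata6*, and *Gata6* was listed at 0 in alveolar macrophages and T cells. By its UMIs, 28.2% of *Gata6* transcripts were in EC and 27.5% in stromal cells, against 6.58% in AT1 and 27.3% in AT2 cells.

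*Hopx* was second highest in *Car4*-type capillary EC, the wide capillary cells that lie against AT1 cells, at 406 ± 100 CPM, above the 117 ± 17.5 of airway cells in every mouse. NK cells had 78.1 ± 16.4, *Aplnr*-type capillary EC 67.5 ± 8.39, alveolar macrophages 54.1 ± 23.1, and T cells 53.9 ± 5.42, and these overlapped. *Hopx* and *Gata6* thus both ranked high in AT1 cells and in EC, but in different EC types: *Gata6* in arterial and *Hopx* in *Car4*-type cells.

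*Cebpa* in basophils or mast cells (340 ± 57.7, n = 2 mice) overlapped that of AT2 cells. Alveolar macrophages (105 ± 28.6), interstitial macrophages or monocytes (89.9 ± 45.1), airway cells, and dendritic cells (60.5 ± 22.6) followed and overlapped their neighbors, and myofibroblasts had 43.4 ± 4.49. *Etv5* came second in pericytes, at 50.3 ± 8.75, above myofibroblasts at 28.8 ± 2.06 in every mouse. The myofibroblasts were made of 2 clusters. In the smaller, of 221 cells and led by *Pdgfra*, *Cebpa* was at 61.1 CPM (52.1 to 71.2) and *Etv5* at 57.7 (49.0 to 67.5), against 35.4 (30.9 to 40.4) and 16.4 (13.4 to 19.9) in the larger, of 585 cells. *Gata6* was at 2.23 CPM in the smaller and 42.7 in the larger.

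*Nkx2-1*, *Foxa1*, *Foxa2*, and *Elf3* stood low in every non-epithelial type. Their highest non-epithelial types were at 12.6 ± 15.3 (*Col13a1*-type fibroblasts), 2.74 ± 3.19 (arterial EC), 13.5 ± 15.6 (the stromal cluster led by *Dcn* and *Col2a1*), and 1.85 ± 1.67 CPM (T cells), where the SD was near or above the mean and neighbors overlapped. The share of AT2 marker RNA found in non-epithelial cells would correspond to 4.43 CPM of *Nkx2-1*, where 4.85 was measured, and 0.499 of *Foxa1*, where 0.647 was measured. For *Foxa2* it would be 0.776, where 1.44 was measured, and for *Elf3* 0.177, where 0.247 was measured. Measured *Foxa2* lay above this share in 3 of 3 mice, and *Nkx2-1*, *Foxa1*, and *Elf3* each in 2 of 3.

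**Figure D4:**
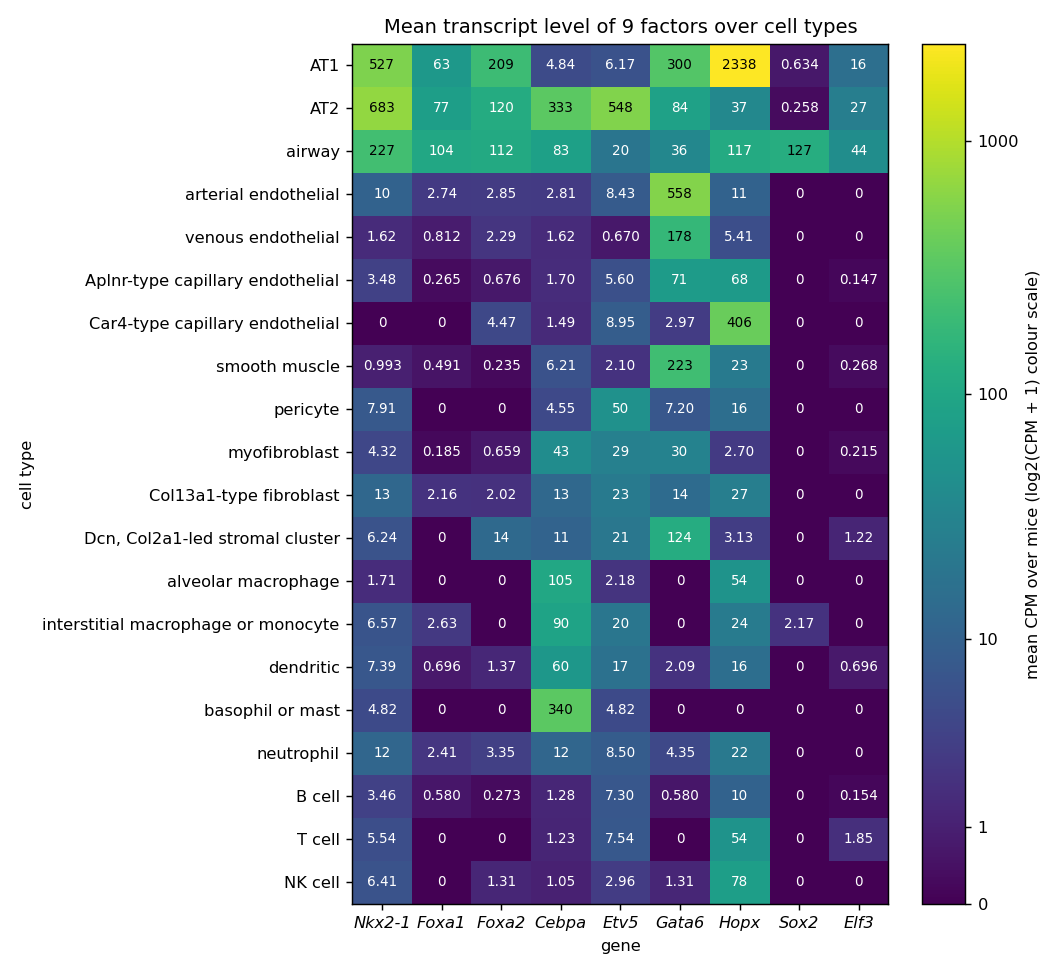
The grid gives the mean level of each factor in CPM (log2(CPM + 1) colors, values printed) in 20 cell groups with at least 10 cells in at least 2 mice. *Gata6* reaches 558 in arterial EC, *Hopx* 406 in *Car4*-type capillary EC, and *Cebpa* 340 in basophils or mast cells, whereas *Foxa1*, *Elf3*, and *Sox2* stay at or below 2.74 outside the epithelium.

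The 39 cells with both alveolar marker sets had AT1-type and AT2-type factors together. Their 11, 7, and 21 cells in the 3 mice had a median of 35772 UMIs, and a median of 11.3% of their UMIs came from the AT2 markers, against 0.10% in AT1 and 21.3% in AT2 cells. *Hopx* was at 1327 CPM (1270 to 1385), *Gata6* at 187 (166 to 210), *Cebpa* at 177 (157 to 199), and *Etv5* at 258 (234 to 285), each between its AT1 and AT2 level. *Nkx2-1* had a UMI in 39 of 39 of them and *Cebpa* in 38. Of these cells, 5 were among the marked doublets. Whether they were pairs of cells or single cells of both kinds was not tested. Counting them as AT1 cells raised the AT1 level of *Cebpa* from 4.84 to 106 CPM and of *Etv5* from 6.17 to 152, and turned 3 comparisons: *Etv5* to 2.35 against airway and 3.60 against non-epithelial cells, and *Cebpa* to 2.68 against non-epithelial cells. AT2 cells remained higher than AT1 cells in both genes, by 1.94 for *Cebpa* and 2.12 for *Etv5*.

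**Figure D5:**
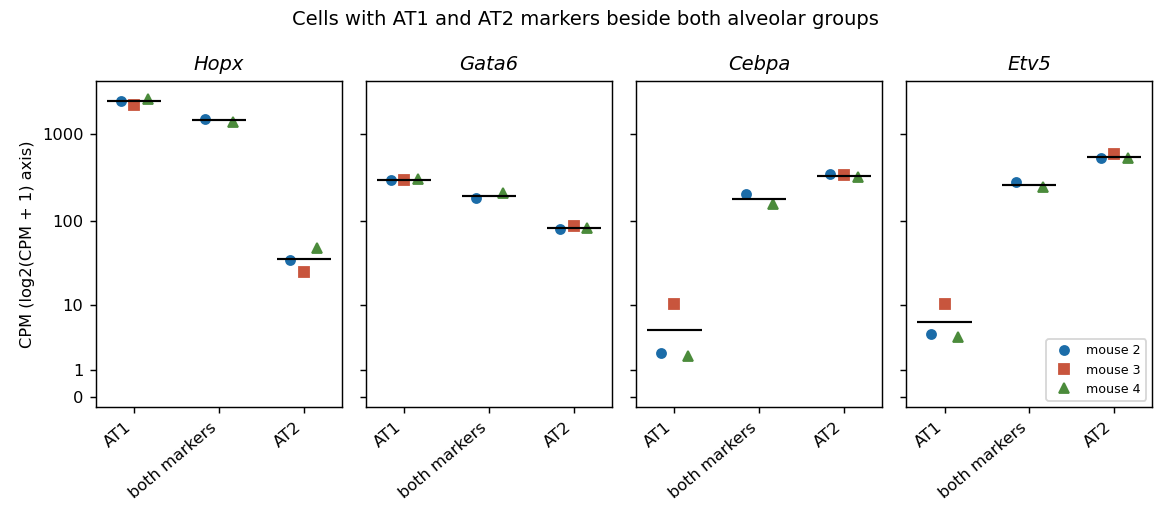
Points give the level of *Hopx*, *Gata6*, *Cebpa*, and *Etv5* (log2(CPM + 1) axis) by mouse in AT1 cells, in cells with AT1 and AT2 markers, and in AT2 cells, with a line at the mean. Only mice with at least 10 cells are plotted. The cells with both marker sets lie between the 2 alveolar groups for each gene.

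Over the 20 cell groups, the profiles of *Nkx2-1*, *Foxa1*, *Foxa2*, and *Elf3* were the most alike of the 9, with Pearson's r of 0.925 to 0.979 between any 2 of them (mean log2(CPM + 10), as a description across groups that share libraries). The genes most like each member were *Tmem139*, *Esrp2*, and *Trpm6* for *Nkx2-1* (r = 0.990, 0.989, and 0.988), *Esrp1*, *Prr15l*, and *Cblc* for *Foxa1* (each 0.994), *Fgfbp1*, *Cxadr*, and *Irx5* for *Foxa2* (0.991, 0.985, and 0.984), and *Gm16136*, *Ccdc64b*, and *Tmem125* for *Elf3* (0.990, 0.988, and 0.987). For *Sox2* they were *Meig1*, *Ccdc151*, and *Reg3g* (each 0.999), which rests on the airway cells, the only named type with more than a few UMIs. The closest genes were less alike for *Cebpa* (*Fut4* and *Trf*, 0.897 and 0.870), *Etv5* (*Abca17*, *Snhg11*, and *Cst8*, 0.915, 0.908, and 0.904), *Gata6* (*Mecom*, *Ptpn14*, and 1010001N08Rik, 0.903, 0.887, and 0.874), and *Hopx* (*Cdkn2b*, *Tekt5*, and *Ptprn*, 0.872, 0.868, and 0.861). With Spearman's correlation the first gene was another for 8 of the members and again *Mecom* for *Gata6*.

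Relatives of the members within their gene families were mostly genes of other cells. Of 17 relatives tested, 4 were higher and 1 lower in AT2 than in AT1 cells, beside 19.5% and 15.6% of all genes. In each epithelial group 11 were lower than in non-epithelial cells, beside 31.2%, 37.8%, and 32.4% of all genes for AT1, AT2, and airway cells. *Elf5* and *Ehf*, ETS factors close to *Elf3*, were at 154 and 70.7 CPM in AT2 cells and 66.7 and 61.4 in airway cells, with 1 and 2 UMIs in AT1 cells. *Elf4* went the other way, with 43.0 CPM in AT1 and 1.14 in AT2 cells (-4.94 ± 0.37, adjusted p = 3.01e-08). *Sox9*, the SOX factor of the distal embryonic lung, was at 24.6 CPM in AT2 and 15.3 in airway cells, and had 0 UMIs in AT1 cells, where 3 counts would be 2.52 CPM. *Gata2*, *Gata3*, *Gata5*, *Sox17*, and *Sox18* were at 79.0, 34.3, 20.2, 90.7, and 80.4 CPM in non-epithelial cells and at 2.51 or less in each epithelial group. *Cebpb* was higher in airway than in AT2 cells (165 and 66.8 CPM), as was *Etv1* (8.89 and 3.60), and *Sox4* (289 and 107) and *Elf2* (56.6 and 34.4) were higher in AT2 than in airway cells.

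Factors of multiciliogenesis were genes of the airway group. All 6 of the 8 listed that could be tested were higher in airway cells than in each of the other 3 groups, beside 20.7%, 21.6%, and 26.0% of all genes against AT2, AT1, and non-epithelial cells. *Foxj1*, the master factor of motile cilia, was at 351 ± 288 CPM in airway cells with 0 UMIs in AT1 and 4 in AT2 cells, *Myb* at 98.5 ± 73.5, *Trp73* at 28.4 ± 14.5, and *Gmnc* at 9.70 ± 1.83. *Rfx3* (13.3 against 3.38 CPM) was higher in AT2 than in AT1 cells, and *Rfx2* was higher in AT2 than in non-epithelial cells (7.32 and 5.57).

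Other regulators of the lung epithelium differed in both directions. Of 29 tested, 13 were higher and 6 lower in AT2 than in AT1 cells (19.5% and 15.6% of all genes), with a median difference of 0.49 against 0.21 over all genes. *Id2* (651 and 39.7 CPM), *Tfcp2l1* (160 and 13.6), and *Foxp1* (323 and 56.5) had the largest positive differences among those called. The genes higher in AT1 cells were led by *Tead1* (631 in AT1 and 66.9 in AT2 cells), *Wwtr1*, which encodes TAZ (362 and 71.2), and *Tead4* (35.0 and 5.64). *Grhl2*, *Irx1*, and *Irx2* were shared by AT1 cells (32.8, 226, and 192 CPM) and AT2 cells (32.2, 250, and 205). They stood at 38.5, 30.4, and 48.6 CPM in airway cells and at 0.144, 1.38, and 1.28 in non-epithelial cells. *Irx3* was at 104 CPM in airway cells and 2.26 in non-epithelial cells. Airway cells had more *Grhl1* (16.5 CPM), *Hes1* (228), and *Pparg* (7.87) than AT2 cells (2.69, 60.7, and 1.66), and no UMI of *Mycn* and 1 of *Tead4*. *Hey1*, *Nfib*, and *Foxp1* were among those lower in AT1 or AT2 than in non-epithelial cells, with *Foxp1* at 714 CPM in the latter.

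The FGF receptor gene *Fgfr2* and the feedback genes of its ERK pathway were mostly higher in AT2 cells, as *Etv5* was. Of 8 tested, 7 were higher in AT2 than in AT1 cells and 7 were higher than in airway cells, with none lower, beside 19.5% and 18.6% of all genes, and with medians of 2.59 and 1.77. *Fgfr2* was at 398 CPM in AT2, 68.1 in AT1, and 78.8 in airway cells. *Spred2* was at 45.2, 7.36, and 13.1, and *Dusp4* at 11.8, 0.634 (1 UMI), and 2.96. *Spry1* was at 196 in AT2, 266 in AT1 (-0.02, adjusted p = 0.972), and 40.7 in airway cells. *Spry4* and *Dusp6* were lower in AT2 than in non-epithelial cells, at 4.22 against 24.0 and 26.2 against 50.4 CPM.

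Known targets of NKX2-1, FOXA, and C/EBP factors, left out of the clustering like the factors themselves, were high in AT2 cells. All 8 were higher in AT2 than in airway cells and 7 of 8 higher than in AT1 cells, beside 18.6% and 19.5% of all genes. *Lyz2* (15620 CPM), *Cxcl15* (6097), *Sftpd* (2982), *Scd1* (2739), *Lpcat1* (2099), and *Muc1* (869) were between 34.0 and 193 in AT1 cells. *Cldn18*, the claudin of alveolar cells, was the exception, with 5982 CPM in AT1 and 1261 in AT2 cells. In airway cells *Sftpd* was at 1049 ± 613 CPM, *Cxcl15* at 851 ± 803, *Muc1* at 322 ± 82.9, and *Cldn18* at 197 ± 84.4. There *Lyz2*, *Lpcat1*, *Fasn*, and *Scd1* were at 167, 60.7, 55.4, and 53.2 CPM. AT2 marker RNA stood at 0.689% of its AT2 level in AT1 cells, 3.68% in airway cells, and 0.647% in non-epithelial cells. Its part in the levels of these targets there was not tested.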

How the data were processed

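The deposited files held raw UMI counts per gene and cell, which the authors made with Cell Ranger 3.0.2 on mm10 (per the submitters' processing notes) from 10x 3′ libraries of 3 mice. The annotation used for counting is not given in the sources used here. Cells were left out under 200 detected genes or over 20% mitochondrial UMIs. They were clustered with SCTransform (Seurat 5.3.0, sctransform 0.4.2; 3000 variable genes less 42 listed genes, 30 components, resolution 0.8), and clusters were named from marker lists. The automatic doublet threshold of Scrublet (scanpy 1.11.5) marked under 0.5% of cells, so the 0.8% per 1000 cells with the highest scores were marked and kept. Cells of AT1 clusters with over 2.5% of UMIs from AT2 markers were set aside, a choice made after member values had been seen.

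UMIs were summed per mouse and group (at least 10 cells) and tested with edgeR 4.0.16 (quasi-likelihood, TMM, filterByExpr, Benjamini-Hochberg adjustment, threshold 0.05). The p-values rest on 3 mice, and each mouse contributed to every group. Each SE was derived from its test, as the absolute log2 fold change divided by the square root of the F statistic. Blocking by mouse, since the same animal gave every group, changed no member's call (same-mouse deviations correlated at a median of 0.0991, range -0.0228 to 0.214, over 18 pairs). The 9 members were always named, with up to 3 called genes per direction from each list, and the 3 genes most like each member, of which 1 for *Cebpa* is not reported here. *Gata2*, *Gata3*, *Gata5*, *Sox17*, *Sox18*, and other list genes beyond these were named after their values were seen. Members and lists were chosen with earlier results of these data known. On simulated data edgeR recovered 98% of 200 genes changed by a log2 fold of 2 between AT2 and AT1 cells. All groups were simulated from the same base profile, and the changed genes were drawn above a minimum expected count. The recovery therefore does not cover differences in composition or genes with few AT1 UMIs, such as *Cebpa*, *Etv5*, and *Sox2*. Poisson and binomial 95% intervals and limits of 3 counts cover counting error only. Promoter windows came from RefSeq (GRCm38.p6) and gene positions from GENCODE M21. Ciliated and club cells alone were too few to test.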

Additional observations from a re-analysis of the deposited data

Results flagged for a closer look

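Clusters that entered none of the comparisons also held member UMIs above the B-cell level. An unnamed cluster of 135 cells with high *Top2a* and *Mki67*, genes of dividing cells, had 363 UMIs of *Nkx2-1*, 35 of *Foxa1*, 100 of *Foxa2*, 93 of *Cebpa*, 262 of *Etv5*, 81 of *Gata6*, and 70 of *Hopx*. Most of the first 5 lay in 24 cells that also carried AT2 RNA, where *Nkx2-1* stood at 647 CPM, *Etv5* at 444, *Foxa2* at 180, and *Cebpa* at 165. In the other 111 dividing cells *Nkx2-1* was at 2.48 CPM and *Cebpa* at 0.826. Of the 24 cells, 11 were among the marked doublets.

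*Sox2* had 32 UMIs, or 127 CPM (95% interval 86.7 to 179), in another unnamed cluster, of 27 cells. The lower 95% limit of its ratio to the B-cell level was 251, and the other 8 members had 0 UMIs there.

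In an unnamed cluster of 450 shallow cells (median 844 UMIs) led by *Hpgd* and *Sox7*, *Gata6* had 58 UMIs (129 CPM) and *Hopx* 33 (73.6 CPM).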

How the results depend on the processing

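Of 891 values of the 54 member fold changes under 17 alternatives, 835 kept direction and side of the threshold, 30 lost a call, 12 gained one, and 14 turned or came to 0.00. Of these, 6 were called neither way: *Sox2* in AT1 against non-epithelial cells (0.00 to 4.61 leaving out 1 mouse, 0.00 without mouse 4), *Sox2* in AT2 against AT1 cells (-5.83 to 4.63 leaving out 1 mouse, 4.63 without mouse 4), *Foxa2* in AT2 against airway cells at 0.09 without TMM, 0.01 with 500 genes and 10% mitochondrial UMIs, and 0.21 without mouse 4 (-0.14 to 0.21 leaving out 1 mouse), and *Gata6* in airway against non-epithelial cells at 0.18 with 500 genes and 10% mitochondrial UMIs. With each cell typed by its own markers, AT2 against airway turned to 0.12 for *Foxa1* and 0.63 for *Foxa2* (called, adjusted p = 0.0432). *Sox2* in AT2 against non-epithelial cells turned to -2.41 there (called, adjusted p = 0.0385). The last ranged from -1.22 (without mouse 2) to 4.63 leaving out 1 mouse. With the cells of both alveolar types counted as AT1 (chosen after seeing the data), *Etv5* turned to 2.35 against airway and 3.60 against non-epithelial cells, and *Cebpa* to 2.68 against non-epithelial cells. With equal weight of endothelial, stromal, and immune cells, *Gata6* in airway against non-epithelial cells turned to 1.07. Members called between AT2 and airway cells fell to 5 at 500 genes and 10% mitochondrial UMIs. Leaving out 1 mouse gave 2847 to 4417 genes called between AT2 and AT1 cells (4584 with all) and 3171 to 4472 between AT1 and airway cells (4856). Causes were not tested, beyond the fewer samples. The replicate block by mouse gave 4455, 5125, 4699, 6478, 8806, and 7591 genes called in the 6 comparisons and changed no member's call. Without TMM, the share of calls that were higher went from 55.5% to 31.5% in AT2 against AT1 cells and from 42.0% to 68.0% in AT1 against airway cells. The 48 airway cells and the 1877 median UMIs of AT1 cells in mouse 3 limit what these values can show.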
